A study of Mus musculus with 44 samples.

Results

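The comparison described here is that of mouse small intestinal organoids after 1 day of RANKL+CSRM617 with organoids of the same arm on day 0. It rests on 4 of the 44 plates of the study, 2 of day 0 and 2 of day 1, taken from the count table of the RANKL+CSRM617 arm; wells with 1000 or more unique molecular identifiers (UMIs, each standing for 1 captured transcript) were kept and their counts were summed per plate. The 4 plates held 760 kept cells of the 1673 in the arm and the 8231 in the series. In the series, single cells were profiled daily during treatment with RANKL alone or together with CSRM617, a compound that inhibits ONECUT2, a transcription factor.

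All organoids came from a female mouse of the line labelled line26 wild type, Lgr5GFPDTR/+, in which 1 Lgr5 allele carries a GFP and diphtheria toxin receptor insertion. Strain and age of the mouse do not stand in the labels. Organoids of every group had 3 days in ENR medium (EGF, Noggin, R-spondin 1) with 3 µM CHIR99021, a GSK3 inhibitor, and 1.5 mM valproic acid, a histone deacetylase inhibitor, followed by 1 day in ENR alone. The day 1 group then received 100 ng/mL RANKL with 40 µM CSRM617. The day 0 plates carry the label of the arm with day 0 as their time, and the protocol does not say that they received either compound, so the comparison measures RANKL and CSRM617 together. No vehicle or CSRM617-only group was analysed here. The labels do not say that the 2 plates of a day came from separate cultures, and p-values then reflect plate-to-plate spread alone, which may be of technical origin. The organoids are an epithelial culture of 1 line, and the compounds and the 1 more day in culture cannot be told apart.

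RANKL is a TNF family cytokine made by stromal cells under the lymphoid follicles of the gut. It binds RANK, encoded by Tnfrsf11a, on epithelial cells and activates the canonical NF-κB pathway, which is limited by its own induced inhibitors, and the noncanonical pathway, in which NFKB2 is processed and acts with RELB. In the intestine this signal turns cells of the follicle-associated epithelium into M cells, which sample antigens from the lumen and require the transcription factors SPIB and SOX8.

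The plates held 179 and 166 kept cells on day 0 and 223 and 192 on day 1, with 470995 to 835772 UMIs per plate and a median of 2506.5 to 3493 UMIs per cell. The most abundant gene model, CT010467.1 (GRCm38 chromosome 17, 39846353 to 39848827, annotated as rRNA), took 4.02% of UMIs on plate 1 and 32.2% on plate 2 of day 0, and 6.87% on plate 1 and 19.7% on plate 2 of day 1. Plates 1 share the suffix L1 in their descriptions and plates 2 the suffix L3, whose meaning is not stated, so the rRNA share differs between the plates of each day more than between the days. Between the plates of 1 day the chi-square per gene was 3.21 on day 0 and 3.00 on day 1, more than UMI counting noise gives. Of the epithelial markers 9 of 10 were in the table, with 4127 UMIs on day 0 and 6411 on day 1. None of the 9 passed the test between the days, which does not bear on cell identity. Mesenchyme was represented by 1 of 12 markers (Lum, 1 UMI on day 0 and 3 on day 1). Blood and immune cells were represented by 1 of 14 (Cd68, 2 and 3 UMIs), and endothelium by 0 of 8. The plates are named by wells, and 101 to 139 well positions were in use on both plates of a pair.

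On day 1, 135 genes were higher and 149 were lower than on day 0 among 6499 tested (edgeR quasi-likelihood test, Benjamini-Hochberg adjusted p under 0.05), which is 2.08% and 2.29% of the genes tested and 4.37% together. Of these, 121 rose and 124 fell by more than 2-fold. The groups of plates did not overlap for any of the 284 called genes, and they did not overlap for 45.8% of all tested genes (day 1 above in 24.6%, below in 21.2%). NF-κB feedback genes, chemokines, early M cell genes and the stem cell genes Olfm4 and Ascl2 were among the genes that rose, and fatty acid binding proteins, carboxylesterases, glycolytic and hypoxia-responsive genes and repeat-derived gene models were among those that fell. Without 1 of the plates the number of called genes fell to 112 (without plate 1 of day 0), 185 (plate 2 of day 0), 120 (plate 1 of day 1) or 148 (plate 2 of day 1); 68 genes were called in all 4 of these fits, 68 in none, and 283 kept their sign in all 4. Levels are given below as CPM, on the plates of a day in the order plate 1, plate 2. CPM is the UMI count of a gene scaled to the plate's total over the tested genes, with the TMM factor.

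**Figure D1:**
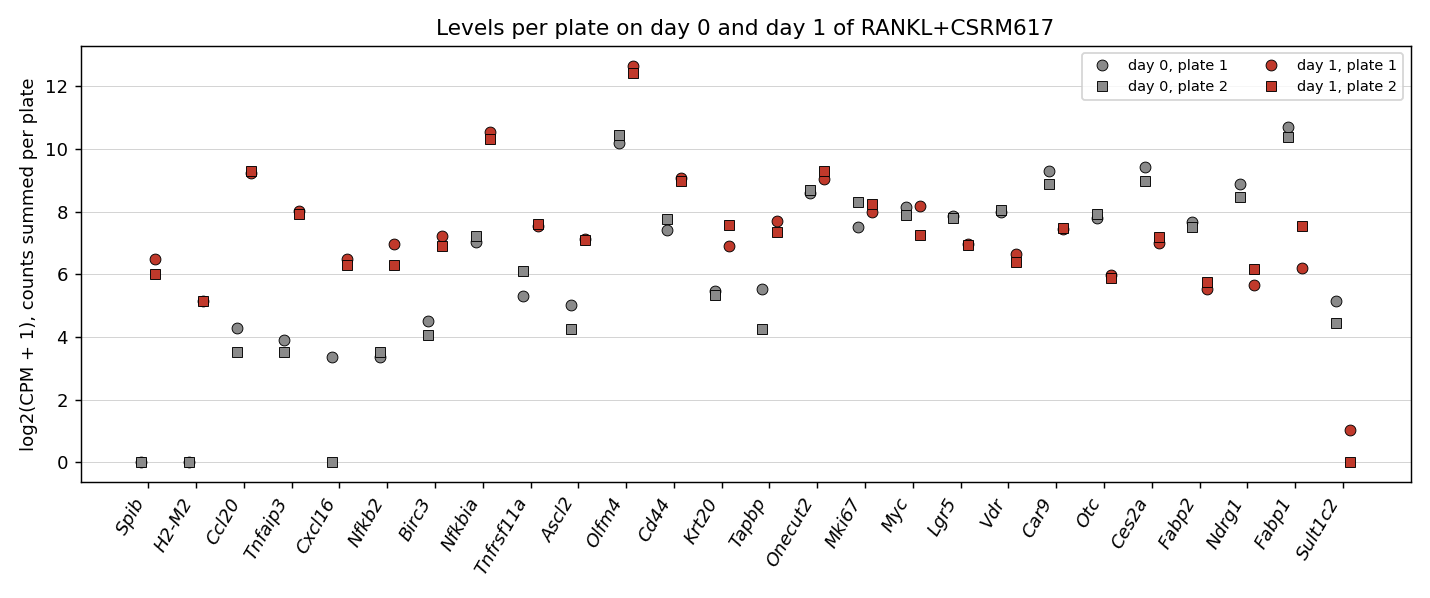
Levels of 26 named genes on each of the 4 plates, as log2(CPM + 1) of counts summed per plate; grey symbols are day 0, red symbols day 1, circles plate 1 and squares plate 2. Spib and H2-M2 lie at 0 on both day 0 plates, Ccl20, Tnfaip3 and Nfkbia are far higher on both day 1 plates, Fabp1, Ndrg1 and Sult1c2 are lower on both, and the symbols of Mki67 and Myc overlap between the days.

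The canonical NF-κB list held several of the rises. Of 14 tested members of that list 6 rose (Nfkbia, Tnfaip3, Tnip1, Bcl3, Birc3 and Ubd), none fell, and the median log2 fold change was 1.69, against 0.03 over all tested genes. Without plate 2 of day 0 the list had 3 calls, and without each of the other plates 4. The pathway's own transcription factor genes Nfkb1, Rel and Rela were tested and not called.

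The sequences just before a RefSeq transcription start are shown for Nfkbia and Tnfaip3, members of this list, and for the chemokine gene Ccl20. Each was chosen because it holds a match to the NF-κB binding motif (κB consensus) and the RNA of its gene rose on day 1. They are RefSeq windows on GRCm38.p6, 250 bases read 5′ to 3′ on the strand of the gene and ending at the base before the start, with the matches in capitals: Nfkbia at chr12:55492648-55492897 (minus strand), Tnfaip3 at chr10:19015411-19015660 (minus strand) and Ccl20 at chr1:83116516-83116765 (plus strand).
Nfkbia: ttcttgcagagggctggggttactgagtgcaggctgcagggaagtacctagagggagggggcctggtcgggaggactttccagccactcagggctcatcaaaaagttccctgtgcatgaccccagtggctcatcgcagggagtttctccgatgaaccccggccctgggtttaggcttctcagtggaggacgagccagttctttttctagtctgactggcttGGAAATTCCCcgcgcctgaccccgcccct
Tnfaip3: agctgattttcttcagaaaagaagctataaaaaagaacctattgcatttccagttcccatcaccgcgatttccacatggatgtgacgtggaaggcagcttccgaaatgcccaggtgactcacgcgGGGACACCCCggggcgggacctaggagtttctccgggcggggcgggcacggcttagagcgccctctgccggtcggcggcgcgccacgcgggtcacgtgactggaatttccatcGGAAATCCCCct
Ccl20: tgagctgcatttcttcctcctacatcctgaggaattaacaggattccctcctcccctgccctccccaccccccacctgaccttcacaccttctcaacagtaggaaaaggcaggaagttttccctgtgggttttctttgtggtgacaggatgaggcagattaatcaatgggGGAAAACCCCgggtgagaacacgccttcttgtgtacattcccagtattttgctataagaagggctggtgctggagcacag
The consensus of 10 bases, searched on both strands with overlapping matches allowed, was present in 3.90% of all 32851 windows and in 5.63% of the 5241 tested genes with a window. Counting any window of a gene, it was in 20 of 108 genes that rose (18.5%), in 10 of 114 that fell (8.77%), and in 4 of the 6 called members of the canonical list; the members of that list are largely known NF-κB targets. A match is a description of the letters and was not measured as binding here. The GENCODE annotation, the source of the gene coordinates, starts Tnfaip3 at 19015657. Nearly all of the Tnfaip3 window printed above therefore lies inside the GENCODE gene.

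Nfkbia encodes IκBα, the inhibitor that NF-κB induces to end its own signal (chromosome 12, 55489410 to 55492647). It had 131 and 149 CPM on day 0 and 1486 and 1286 CPM on day 1. The day 1 plates stood well above day 0, a log2 fold change of 3.32 ± 0.24 (SE, 2 plates a day; edgeR adjusted p = 2.44e-09). Tnfaip3, which encodes the ubiquitin-editing inhibitor A20, went from 14.01 and 10.4 to 260 and 240 CPM. The plates of each day were close to each other and the log2 fold change was 4.28 ± 0.29 (adjusted p = 1.98e-09). Birc3, the ubiquitin ligase cIAP2 of the TNF receptor complexes, had 21.8 and 15.6 CPM before and 147 and 119 CPM after 1 day, again without overlap, at 2.77 ± 0.35 (adjusted p = 2.92e-05). Ubd, a ubiquitin-like protein induced by inflammatory cytokines, had no UMI on day 0 and 8.35 and 18.3 CPM on day 1. With a floor of 3 UMIs over the group this is at least 4.09-fold higher. Its call (adjusted p = 0.0238) was lost without plate 1 of day 0 (0.282), plate 2 of day 0 (0.0953) or plate 2 of day 1 (0.117).

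The RNA of RANK itself rose, with 2 genes of the noncanonical pathway. Of 9 tested members of that list 3 passed, all as rises, and 6 did not, with a median of 0.92. Tnfrsf11a, the receptor of RANKL (chromosome 1, 105780718 to 105847981), had 38.9 and 67.7 CPM on day 0 and 185 and 192 CPM on day 1. The day 1 plates nearly coincided and lay above both day 0 plates, at 1.88 ± 0.27 (edgeR adjusted p = 9.88e-05). Nfkb2, the precursor of the noncanonical p52 subunit, had 9.34 and 10.4 CPM on day 0 and 124 and 76.8 CPM on day 1, a rise of 3.35 ± 0.45 (adjusted p = 5.27e-05). Its partner Relb had 9.34 and 7.82 CPM and then 35.5 and 40.2 CPM. The day 1 plates were higher, at 2.06 ± 0.53 (adjusted p = 0.0237), but the call was lost without any 1 of the 4 plates (adjusted p from 0.0976 to 0.224). The adaptor and kinase genes Traf2, Traf3, Traf6 and Chuk were not called.

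Of 4 tested chemokines 2 rose and none fell. Ccl20 (chromosome 1, 83116766 to 83119167), the ligand of CCR6 that draws lymphocytes and dendritic cells to the follicle-associated epithelium, had 18.7 and 10.4 CPM on day 0 and 606 and 633 CPM on day 1. The day 1 plates nearly coincided, at 5.30 ± 0.43 (edgeR adjusted p = 2.67e-08). Cxcl16, the transmembrane chemokine that binds CXCR6, had 9.34 and 0 CPM and then 88.7 and 76.8 CPM. Both day 1 plates were higher, at 3.78 ± 0.49 (adjusted p = 3.34e-05). The other 2 tested chemokines, Ccl9 and Ccl25, were not called.

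Most tested M cell genes rose within the first day. The list has 22 members, of which 15 were in the table and 12 were tested. Among 12 M cell genes tested, 9 rose, none fell, and all 12 had a positive log2 fold change, with a median of 1.38; the fits without 1 of the plates had 6 to 8 calls in this list. Those called were Spib, H2-M2, Rab32, Anxa5, Marcksl1, Serpinb1a, Pglyrp1, Clec2h and Ctsh. Over all tested genes 2.08% rose. Called genes with 0 UMIs on both day 0 plates were Spib and H2-M2 here and Ubd and Trpm6 in other lists. Spib and H2-M2 passed the filter on their day 1 plates alone, and Ubd and Trpm6 through plates of later days. All of these could only rise, so their direction is no result, also within the list counts. Spib (chromosome 7, 44525993 to 44532071), the ETS factor required for M cells, had 0 UMIs on both day 0 plates and 85 and 35 UMIs on day 1, or 88.7 and 64.0 CPM. The rise was at least 27.3-fold, taking 3 UMIs as the floor of the day 0 group (edgeR adjusted p = 0.000116) and was called without each plate in turn. H2-M2, which encodes a nonclassical class I molecule, also went from 0 UMIs to 34.4 and 34.8 CPM. Its rise was at least 11.8-fold (adjusted p = 0.000426). Rab32, a small GTPase of lysosome-related organelles, had 29.6 and 10.4 CPM and then 143 and 115 CPM, a separation of 2.55 ± 0.35 (adjusted p = 6.63e-05). Anxa5, the annexin that binds phosphatidylserine, had 21.8 and 18.2 CPM and then 112 and 95.1 CPM, at 2.34 ± 0.37 (adjusted p = 0.000336). Sox8, the other factor required for M cells, had no UMI on any of the 4 plates, so it was not detectable at this depth.

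Genes of other functions were among the largest rises. Anxa10, an annexin, had 2 UMIs on day 0 and 91 on day 1, or 1.56 and 2.61 CPM against 62.6 and 56.7 CPM. The ratio of the summed counts, each divided by the scaled library size of its day, was 31.02, with a 95% counting interval of 8.34 to 260, and the edgeR adjusted p was 9.88e-05. Guca2a, which encodes guanylin, the peptide that controls salt and water secretion, had 6.23 and 0 CPM and then 108 and 64.0 CPM. Both day 1 plates were higher, at 4.41 ± 0.79 (adjusted p = 0.00113). Bmp2, a ligand of the BMP pathway that opposes stem cell identity along the crypt-villus axis, had 3.11 and 7.82 CPM and then 67.8 and 54.9 CPM, at 3.58 ± 0.50 (adjusted p = 7.88e-05). Stx11, a SNARE protein of secretory immune cells, rose from 1.56 and 2.61 to 28.2 and 32.9 CPM, a ratio scaled in the same way of 15.3 with a counting interval of 4.01 to 131. Its adjusted p was 0.000824, and 0.0636 without plate 1 of day 0. Hsd17b6, a steroid dehydrogenase, had 1 UMI on day 0 and 21 on day 1; its call (adjusted p = 0.0359) was lost without plate 1 of day 0 (0.195), plate 2 of day 0 (0.186) or plate 1 of day 1 (0.354).

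Stem cell genes moved in both directions. Of 12 tested members of the stem list 4 rose (Olfm4, Ascl2, Msi1 and Slc12a2), 1 fell (Lgr5) and the median was 0.33; 3 rises and no fall were called without each plate in turn. Olfm4, a secreted glycoprotein of crypt base cells (chromosome 14, 79984081 to 80023139), had 1180 and 1404 CPM on day 0 and 6447 and 5504 CPM on day 1. These plates were far apart by day, and the rise was 2.21 ± 0.34 (edgeR adjusted p = 0.000203). Ascl2, the Wnt-driven transcription factor of intestinal stem cells, had 31.1 and 18.2 CPM and then 139 and 137 CPM, at 2.40 ± 0.41 (adjusted p = 0.000761). Lgr5, the R-spondin receptor that marks the same cells and of which 1 allele is the reporter insertion here (chromosome 10, 115450311 to 115587780), had 234 and 221 CPM on day 0 and 124 and 123 CPM on day 1. The plates did not overlap and the level fell by 0.88 on the log2 scale (SE 0.25, adjusted p = 0.0495), close to the threshold, and the call was lost without any 1 of the 4 plates (adjusted p from 0.148 to 0.35). Msi1, an RNA-binding protein, rose by 1.44 ± 0.37 (adjusted p = 0.0215) and lost its call without plate 2 of day 0 (0.223) or plate 1 of day 1 (0.565). Slc12a2, the basolateral sodium-potassium-chloride carrier, rose from 1141 and 1563 to 2693 and 3084 CPM, at 1.10 ± 0.22 (adjusted p = 0.00345; 0.129 without plate 1 of day 0 and 0.0577 without plate 2 of day 1).

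Among Wnt targets 2 of 11 tested genes rose, and none fell. Cd44, the hyaluronan receptor of crypt cells, had 170 and 216 CPM and then 541 and 498 CPM. It was higher on both day 1 plates by 1.44 ± 0.24 (edgeR adjusted p = 0.000543). Sox9, a crypt transcription factor, rose by 0.91 ± 0.23 (adjusted p = 0.0180) and lost its call without any 1 plate (0.0956 to 0.219). Myc had 280 and 237 CPM before and 288 and 152 CPM after 1 day, with overlapping plates and an adjusted p of 0.830. Mycl, a member of the MYC family, had 29.6 and 54.7 CPM and then 219 and 181 CPM, clearly apart at 2.32 ± 0.32 (adjusted p = 5.83e-05).

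Few cell cycle genes were called, against 4.37% of all tested genes, which does not show that they were unchanged. Of 29 tested DNA replication genes 0 passed the test with edgeR (0 at an unadjusted p under 0.05, 0 with DESeq2). Their median was 0.21, with 25 positive and 3 negative values. Of 32 mitosis genes 1 rose, at a median of 0.22, with 28 positive and 4 negative values. That gene, Ect2, a guanine nucleotide exchange factor of cytokinesis, rose by 0.87 ± 0.23 (edgeR adjusted p = 0.0260) and lost its call without any 1 plate (0.0569 to 0.348). Mki67, the marker of cycling cells, had 181 and 313 CPM on day 0 and 250 and 304 CPM on day 1. Its day 0 plates enclosed both day 1 plates, with a log2 fold change of 0.19 ± 0.34 (adjusted p = 0.903). Ccnd2, the D-type cyclin, fell by 1.08 on the log2 scale (adjusted p = 0.0126) and lost its call without plate 2 of day 0 (0.142), plate 1 of day 1 (0.182) or plate 2 of day 1 (0.0547).

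Onecut2, the gene of the factor that CSRM617 is designed to inhibit, had 388 and 412 CPM on day 0 and 527 and 633 CPM on day 1. The day 1 plates lay above both day 0 plates, but the log2 fold change of 0.54 ± 0.22 did not pass the test (edgeR adjusted p = 0.231). Its RNA level gives no measure of how far the protein was inhibited, and the inhibition itself was not measured in these data. Of 23 tested intestinal transcription factor genes none rose and 2 fell, the nuclear receptors Vdr and Ppara. Vdr, the vitamin D receptor, had 251 and 263 CPM and then 99.1 and 82.3 CPM, a fall on both plates (fell by 1.48, SE 0.25, adjusted p = 0.000761). Ppara, the receptor that controls fatty acid oxidation, fell by 2.29 on the log2 scale (adjusted p = 0.0252), a call lost without any 1 plate (0.0599 to 0.235). Cdx1, Cdx2, Hnf4a, Hnf4g, Gata4 and Klf5 were tested and not called.

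**Figure D2:**
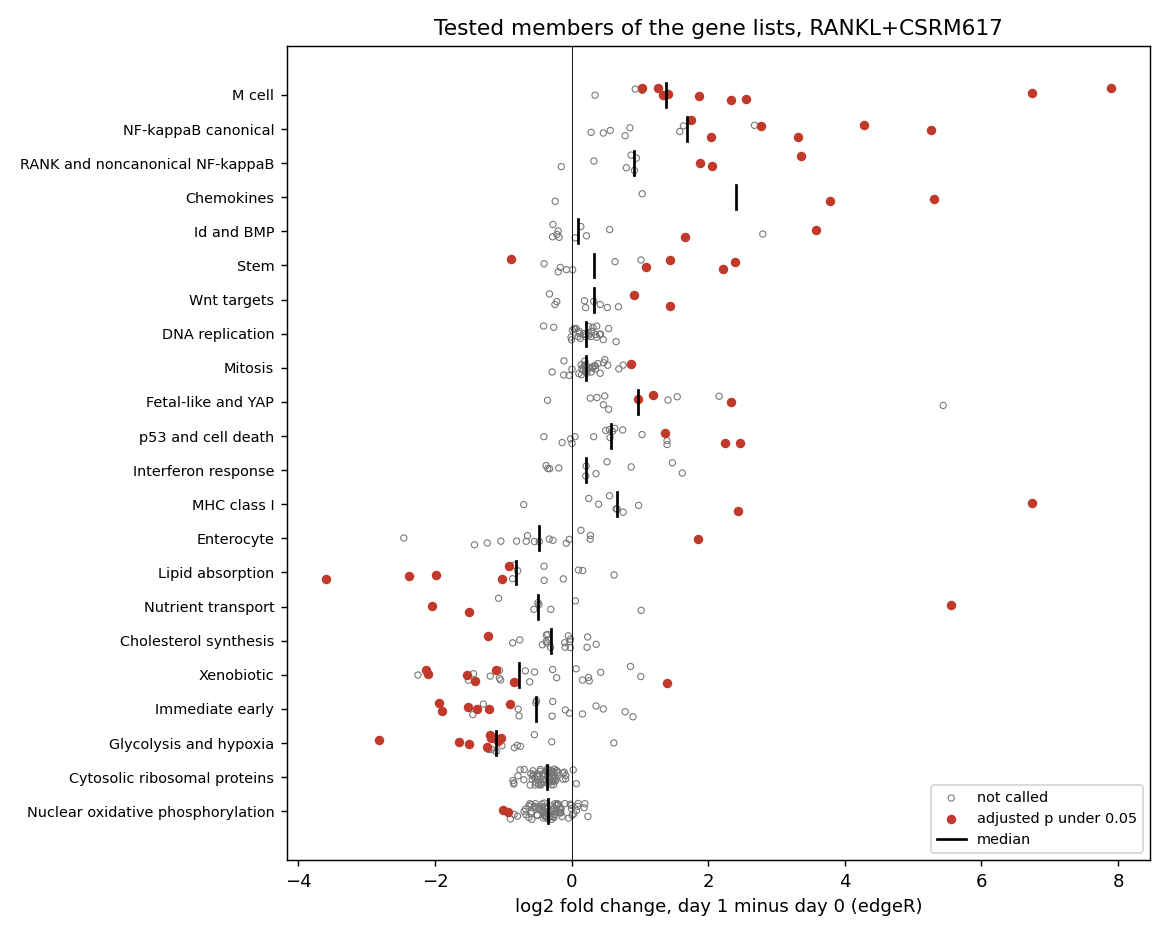
Log2 fold change (day 1 minus day 0) of every tested member of 22 gene lists; each point is a gene, filled red where the edgeR adjusted p was under 0.05, and the bar is the median of the list. M cell, NF-κB and chemokine lists lie to the right, lipid absorption, xenobiotic, immediate early and glycolysis lists mostly to the left, and ribosomal protein genes sit just left of 0 with no call.

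Genes of enterocyte function fell in parts. Of 14 tested lipid absorption genes 5 fell (Fabp1, Fabp2, Apoc3, Plin3 and Npc1l1) and none rose, with a median of -0.81; the falls numbered 3 without plate 1 of day 0, 4 without plate 2 of day 0, 2 without plate 1 of day 1 and 3 without plate 2 of day 1. Fabp1, the fatty acid binding protein of the proximal small intestine and liver (chromosome 6, 71199827 to 71205023), had 1649 and 1345 CPM on day 0 and 72.0 and 185 CPM on day 1. Both day 1 plates were far below, although they differed from each other by more than 2-fold, and the level fell by 3.59 on the log2 scale (SE 0.46, edgeR adjusted p = 2.92e-05). Fabp2, its intestinal relative, went from 202 and 180 to 44.9 and 53.05 CPM, lower by a log2 fold change of -1.98 ± 0.37 (adjusted p = 0.00147). Apoc3, a lipoprotein component, had 48.3 and 70.4 CPM and then 7.30 and 16.5 CPM, a call (adjusted p = 0.00619) that was lost without plate 1 of day 1 (0.182). Apoa1, Apoa4, Apob and Mttp, which assemble chylomicrons, were not called.

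In the enterocyte list 1 of 17 tested members passed, and it rose; the median was -0.47. Alpi, the brush border phosphatase used as an enterocyte marker, had 310 and 195 CPM before and 145 and 185 CPM after 1 day. Its day 1 plates were both below the day 0 plates, with a log2 fold change of -0.65 ± 0.24 that was not called (edgeR adjusted p = 0.181). The member that rose was Krt20, a keratin of mature surface cells, from 43.6 and 39.1 to 120 and 188 CPM. Both day 1 plates were higher, at 1.85 ± 0.31 (adjusted p = 0.000553). Among 10 tested nutrient transport genes 2 fell and 1 rose. Khk, the fructose kinase, fell by 2.04 on the log2 scale (adjusted p = 0.00202; 0.0553 without plate 1 of day 0). Slc26a3, the chloride-bicarbonate exchanger, fell by 1.50 (adjusted p = 0.00940) and lost its call without plate 1 of day 0 (0.110), plate 1 of day 1 (0.149) or plate 2 of day 1 (0.0592). Trpm6, a magnesium channel, had 0 UMIs on day 0 and 16.7 and 12.8 CPM on day 1, at least 5.23-fold higher (adjusted p = 0.0224), and lost its call without plate 1 of day 0 (0.263), plate 2 of day 0 (0.0886) or plate 1 of day 1 (0.126).

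Drug and ester metabolism genes fell more often than they rose. Of 26 tested members of the xenobiotic list 6 fell and 1 rose, with a median of -0.76, and the falls ranged from 2 (without plate 1 of either day) to 11 (without plate 2 of day 0). Ces2a, a carboxylesterase of the enterocyte endoplasmic reticulum, had 688 and 500 CPM on day 0 and 127 and 146 CPM on day 1. The days were well apart, at -2.13 ± 0.26 (edgeR adjusted p = 1.97e-05). Its neighbour in the same family, Ces2e, had 577.5 and 466 CPM and then 103 and 145 CPM, at -2.10 ± 0.29 (adjusted p = 6.02e-05). Sult1c2, a sulfotransferase, had 30 UMIs on day 0 and 1 on day 1; the ratio of day 0 to day 1 after scaling by library size was 44.005 with a counting interval of 7.32 to 1795 (adjusted p = 0.000916). Carboxylesterase genes of the Ces2 family are close paralogs, and reads that fit several of them could have been divided between them by the authors' counting. Otc, the urea cycle enzyme ornithine transcarbamylase, had 221 and 240 CPM before and 62.6 and 58.5 CPM after 1 day. It was lower on both plates by a log2 fold change of -1.91 ± 0.27 (adjusted p = 0.000106). Insig1, the sterol-responsive brake on SREBP, fell by 1.22 on the log2 scale (adjusted p = 0.000996), the only call among 19 tested cholesterol synthesis genes.

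Several glycolytic and hypoxia-responsive genes fell. Of 19 tested members of that list 9 fell (Aldoa, Tpi1, Pgk1, Pgam1, Pdk1, Vegfa, Egln3, Ndrg1 and Car9), none rose, 18 had a negative log2 fold change and the median was -1.10. Without plate 1 of day 0 the falls numbered 4 and without plate 2 of day 1 they numbered 3, against 8 without either other plate. Ndrg1, a stress-responsive gene of differentiating cells (chromosome 15, 66929318 to 66969640), had 475 and 352 CPM on day 0 and 49.0 and 71.3 CPM on day 1. The 2 days did not overlap, and the level fell by 2.82 on the log2 scale (SE 0.30, edgeR adjusted p = 2.48e-06). Car9, the membrane carbonic anhydrase that is a standard target of hypoxia-inducible factors (chromosome 4, 43506966 to 43513729), had 624 and 466 CPM and then 174 and 176 CPM. The day 1 plates coincided, at -1.65 ± 0.25 (adjusted p = 0.000188). The calls of 2 glycolytic enzymes depended on single plates. Tpi1 had 660 and 349 CPM and then 261 and 87.8 CPM, and its call (adjusted p = 0.0345) was lost without plate 1 of day 0 (0.483) or plate 2 of day 1 (0.407). Aldoa had 1485 and 748 CPM and then 621 and 324 CPM, and its call (adjusted p = 0.0332) was lost without the same plates (0.602 and 0.424). For both enzymes plate 1 (suffix L1) was higher than plate 2 (suffix L3) on each day, and both fell from day 0 to day 1 within each suffix. With the suffix as a covariate both were called (adjusted p = 0.000109 for Tpi1 and 0.000732 for Aldoa), an alternative chosen after seeing the data.

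The window of Car9 (RefSeq, GRCm38.p6, chr4:43506776-43507025, plus strand) and that of Pgk1 (chrX:106186850-106187099, plus strand) are shown because both genes fell and both hold the hypoxia core ACGTG, in capitals. Pgk1, phosphoglycerate kinase, is outside the rule for named genes and was chosen after its values were seen; it had 2187 and 1829 CPM on day 0 and 1075 and 891 CPM on day 1 (-1.03 ± 0.22, edgeR adjusted p = 0.00567).
Car9: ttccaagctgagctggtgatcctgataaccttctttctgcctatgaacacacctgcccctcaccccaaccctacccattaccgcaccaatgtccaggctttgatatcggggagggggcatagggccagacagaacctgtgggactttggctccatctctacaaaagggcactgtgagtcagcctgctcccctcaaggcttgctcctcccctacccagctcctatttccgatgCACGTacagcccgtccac
Pgk1: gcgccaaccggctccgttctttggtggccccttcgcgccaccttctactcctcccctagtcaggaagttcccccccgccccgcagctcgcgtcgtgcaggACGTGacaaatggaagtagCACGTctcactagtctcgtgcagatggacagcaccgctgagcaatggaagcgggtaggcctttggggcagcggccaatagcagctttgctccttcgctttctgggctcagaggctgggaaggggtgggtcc
ACGTG or its reverse complement CACGT was present in 16.6% of all windows and in 26.2% of tested genes with a window. It was in 6 of the 8 called list members with a window, in 11 of 18 tested members, and in 26 of 114 genes that fell (22.8%). The list was drawn up from glycolytic and hypoxia-responsive genes, so its higher share is no independent result. The core overlaps with E-box motifs that contain CACGTG, and no match says only that these letters are not in the window. The Car9 match lies inside the GENCODE span of the gene, which starts at 43506966, before the RefSeq start.

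A minority of immediate early genes fell. Of 21 tested members 6 fell (Fos, Fosb, Jun, Atf3, Btg2 and Dusp1), 15 were not called, 5 of the 21 had a positive value and the median was -0.52. The falls numbered 2 without each plate in turn, 2 with DESeq2 and 1 with thinned cells. Fos, a subunit of the AP-1 transcription factor, had 971 and 842 CPM on day 0 and 384 and 307 CPM on day 1. It was lower on both plates by a log2 fold change of -1.39 ± 0.27 (edgeR adjusted p = 0.00266; 0.0619 without plate 2 of day 1). Atf3, a stress-induced factor, had 157 and 128 CPM and then 41.7 and 31.1 CPM, at -1.94 ± 0.36 (adjusted p = 0.00139; 0.0625 without plate 1 of day 0). Of 10 tested EGF ligand and receptor genes 2 fell, the ligand Hbegf and the feedback inhibitor Errfi1, and neither was called without any 1 plate (adjusted p from 0.0784 to 0.346).

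Several smaller groups had calls. Among 10 tested MHC class I genes, H2-M2 and Tapbp rose. Tapbp, tapasin, which loads peptides onto class I molecules, had 45.1 and 18.2 CPM and then 209 and 163 CPM, a rise of 2.44 ± 0.33 (edgeR adjusted p = 5.19e-05). B2m, H2-K1 and H2-D1 were not called. Among 18 tested p53 and cell death genes 3 rose, and without plate 1 of day 0 the count was 1. Gsdmd, the pore-forming gasdermin of pyroptosis, had 12.5 and 13.03 CPM and then 61.6 and 84.1 CPM, at 2.47 ± 0.44 (adjusted p = 0.00102). Casp4, the caspase that cleaves it, rose by 2.24 ± 0.38 (adjusted p = 0.000761; 0.0628 without plate 1 of day 0). Among 20 tested keratin and junction genes F11r, the junctional adhesion molecule A, had 106 and 104 CPM and then 238 and 316 CPM, at 1.39 ± 0.25 (adjusted p = 0.00125).

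In the BMP list 2 of 12 tested genes rose, Bmp2 and Id2. Id2, an inhibitor of bHLH factors, had 51.4 and 62.5 CPM and then 166 and 194 CPM, at 1.67 ± 0.35 (edgeR adjusted p = 0.00509; 0.114 without plate 1 of day 0). Id1 had 65.4 and 31.3 CPM and then 62.6 and 47.6 CPM, with day 1 plates inside the range of day 0 (adjusted p = 0.927). Id3 had 3 UMIs on 1 plate of day 1 and none elsewhere. Of 14 tested Paneth and antimicrobial genes 1 rose and 1 fell: Nos2, inducible nitric oxide synthase, had 2 UMIs on day 0 and 54 on day 1 (ratio after scaling by library size 18.4, counting interval 4.86 to 156, adjusted p = 0.0135; 0.304 without plate 1 of day 0 and 0.120 without plate 2 of day 1), and Reg3a, an antimicrobial lectin, fell from 40.5 and 54.7 to 4.17 and 3.66 CPM (adjusted p = 0.00940; 0.110 without plate 1 of day 1 and 0.0547 without plate 2 of day 1). Selenop, a secreted selenium carrier, fell from 15.6 and 52.1 to 5.22 and 1.83 CPM, and its call (adjusted p = 0.0362) was lost without plate 2 of day 0 (0.417), plate 1 of day 1 (0.137) or plate 2 of day 1 (0.186). Among 13 tested fetal-like and YAP genes 3 rose, led by Anxa5; Anxa2, a membrane-scaffold annexin, rose by 1.19 ± 0.22 (adjusted p = 0.00151; 0.0586 without plate 2 of day 0). None of 5 enteroendocrine, 5 tuft or 6 Notch pathway genes tested was called with edgeR or DESeq2, and 1 of each list had an unadjusted p under 0.05. All 5 enteroendocrine genes were positive, with a median of 2.73, and their list held only 29 UMIs on day 0 and 138 on day 1. All 5 tuft genes were positive, with a median of 1.59, or 0.70 with bounds for 0 UMIs. The Notch genes had 3 positive and 3 negative values. The missing calls do not show that these lists were unchanged. Cytosolic ribosomal protein genes had 63 negative values of 65 tested, a median of -0.36 and 0 calls with edgeR or DESeq2, with 10 genes at an unadjusted p under 0.05.

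Repeat-derived gene models made up part of the largest falls. Gm10722, Gm10715, Gm10717, Gm10800, Gm10801 and Gm11168 are annotated models on chromosomes 9 and 2 that share much of their sequence: 36.2% to 94.4% of the 31-base words of each of 12 such models also occur in another of the 12, a set chosen after its values were seen, so counts of single models are uncertain and the group is given as a sum. The group took 5.91% and 2.82% of UMIs on the day 0 plates and 0.921% and 0.874% on the day 1 plates. The plates did not overlap, yet the median share per cell was 0.266% and 0.528% on day 0 and 0.260% and 0.215% on day 1, while the upper decile over cells was 7.95% and 4.99% and then 1.70% and 1.31%. The upper decile was lower on both day 1 plates, and the median nearly equal between plates 1 and lower on day 1 between plates 2. Gm10800 alone had 43104 and 27839 CPM on day 0 and 6428 and 7055 CPM on day 1 (edgeR adjusted p = 0.0101), and its call was lost without plate 1 of day 0 (0.0715), plate 1 of day 1 (0.0925) or plate 2 of day 1 (0.0637). Gm10722 (-2.77) and Gm10715 (-2.56 on the log2 scale) were called without each plate in turn. On later days of this arm the 12 models took 1.62% and 1.40% of UMIs on day 2 and 3.18% and 3.53% on day 3. They took 6.08% and 1.77% on day 4, 1.38% and 8.19% on day 5, and 4.14% and 5.70% on day 6. The share thus also differed widely between plates of 1 day. On the RANKL plates of a separately made table the group took 0.163% to 0.384% of UMIs on day 0 and 0.0842% to 0.141% on day 1.

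Sums per plate do not show how many cells carry a change, since fewer cells with a transcript and less of it per cell cannot be told apart in a sum. Each kept cell was therefore thinned to 1000 UMIs and the cells with at least 1 UMI of a gene were counted. Nfkbia was found in 22 of 179 and 20 of 166 cells on day 0 (12.3% and 12.05%) and in 165 of 223 and 132 of 192 cells on day 1 (74.0% and 68.8%, exact 95% binomial intervals 67.7% to 79.6% and 61.7% to 75.2%). Most cells thus held the transcript on day 1 even at this shallow depth. Spreading the same UMIs evenly at random over the cells would give 82.4% and 71.5%, not far from the counted shares. Ccl20 was found in 1.12% and 0% of cells on day 0 and in 41.3% and 30.2% on day 1. An even spread of its UMIs would reach 56.8% and 40.3% of cells, so they were held by fewer cells than an even spread gives. Without thinning, Nfkbia was in 27.9% and 22.3% of cells on day 0 and 88.8% and 87.5% on day 1, and Ccl20 in 3.35% and 2.41% and then 59.6% and 53.6%.

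Tnfaip3 was found in 26.01% and 20.8% of thinned cells on day 1, close to the 26.6% and 24.5% of an even spread, and Tnfrsf11a in 3.91% and 5.42% on day 0 and 17.5% and 17.2% on day 1. Spib was found in 0 of 179 and 0 of 166 cells on day 0, also without thinning; 3 cells of the total, the floor used here for a count of 0, are 1.68% and 1.81%, and the exact 95% upper bounds are 2.04% and 2.20%, both for cells with a UMI and not for cells expressing the gene. It was found in 19 of 223 and 12 of 192 cells on day 1 (8.52% and 6.25%); without thinning the day 1 shares were 19.3% and 11.98%. Olfm4 was unevenly spread over cells: it was in 27.9% and 24.1% of cells on day 0, where an even spread of its UMIs would give 81.2% and 74.2%. On day 1 it was in 66.8% and 55.2% of cells, more than on day 0 on both plates. Fabp1 went from 21.2% and 22.3% of cells to 4.93% and 7.29%. Onecut2 was in 31.3% and 25.9% of cells on day 0 and 43.0% and 39.6% on day 1, and Lgr5 in 39 of 179 and 33 of 166 cells and then 29 of 223 and 17 of 192 cells. These intervals and limits cover counting error only, and RNA free in the sorted suspension, which could give single UMIs in cells that do not express a gene, was not measured.

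**Figure D3:**
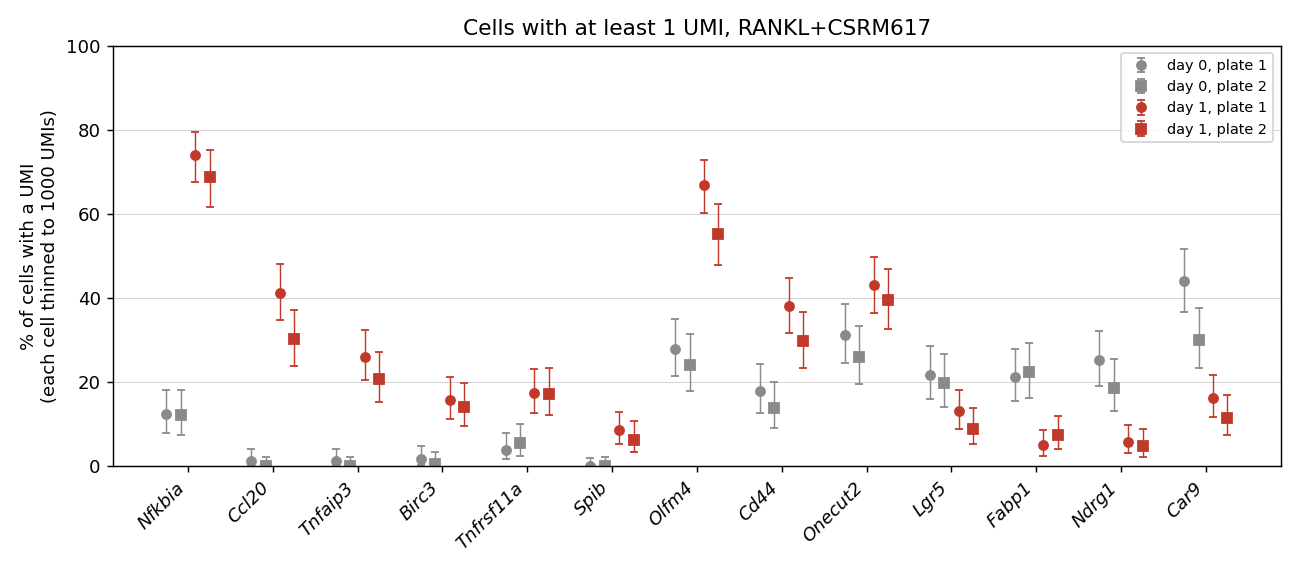
Share of cells with at least 1 UMI of 13 genes on each plate after thinning every cell to 1000 UMIs; grey is day 0, red is day 1, circles are plate 1, squares plate 2, and bars are exact 95% binomial intervals. Nfkbia rises from about 12.3% to 74.0% on plates 1, Spib appears on day 1 only at 8.52% and 6.25%, and Fabp1, Ndrg1 and Car9 fall.

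The same day of RANKL without the inhibitor was tested in its own table with 3 plates a day, where 23.8% of 10000 tested genes were called (11.4% up, 12.3% down); that arm has its own day 0 plates and shares no plate with this comparison. Over the 6484 genes tested in both, 119 of the 134 rises with RANKL+CSRM617 were also called as rises with RANKL (88.8%, or 12.8% of the 927 RANKL rises), and 121 of the 147 falls were also called as falls (82.3%, or 13.1% of the 927 RANKL falls). Tubb2a, a tubulin named after its values were seen, was the only gene called in opposite directions. The difference between the 2 changes was tested in a fit over 35 plates of both arms, and 32 of 8766 genes (0.365%) passed, 27 with a larger value (0.308%) and 5 with a smaller value (0.057%) under RANKL+CSRM617. The difference was not called for Ccl20, Tnfaip3, Nfkbia, Tnfrsf11a, Olfm4, Fabp1, Lgr5, Onecut2 or Mki67, which does not show that their changes were alike. For Spib the difference could not be estimated, since both arms had 0 UMIs on day 0; on day 1 it had 88.7 and 64.0 CPM with RANKL+CSRM617 and 259 ± 64.6 CPM (SD, n = 3) with RANKL, levels set across tables that were scaled separately. Mitosis genes had 27 rises of 32 tested in the RANKL arm and 1 here, and none of them was called in the test of the difference. Their median log2 fold change was 0.93 with RANKL and 0.22 here. The RANKL plates of days 0 and 1 had a median of 4688 to 6517 UMIs per cell, against 2506.5 to 3493 here. With deeper cells and 3 plates a day against 2, numbers of calls in the 2 arms do not stand on equal terms.

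**Figure D4:**
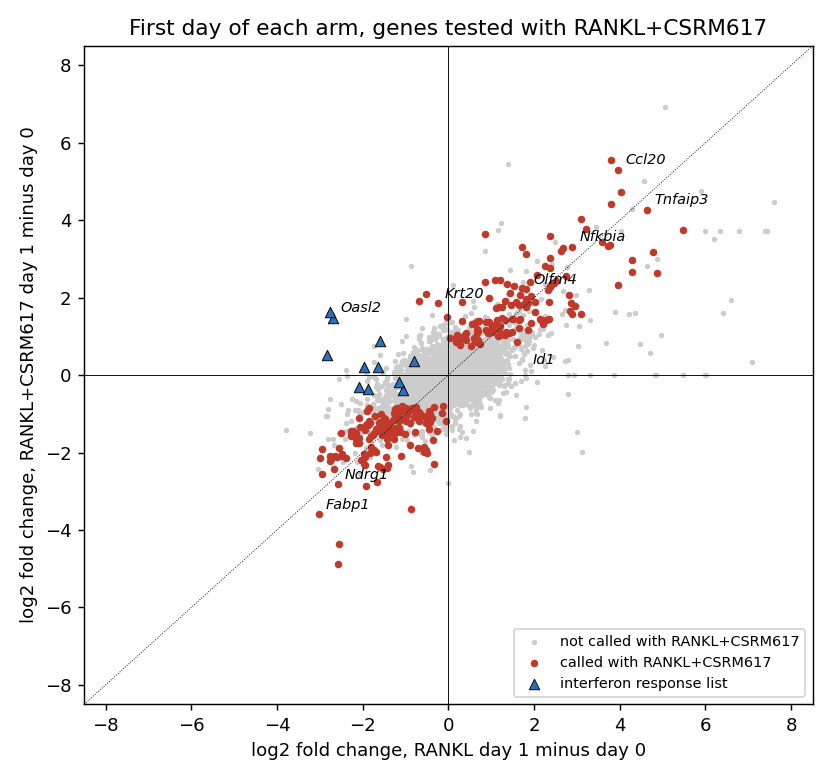
Log2 fold change on the first day with RANKL (horizontal) and with RANKL+CSRM617 (vertical) for the 6484 genes tested in both; red points are genes called with RANKL+CSRM617, blue triangles the 11 plotted interferon response genes, the dotted line marks equal change, and 4 genes lie outside the axes. Red points lie mainly at the upper right and lower left, and all 11 interferon genes lie left of 0 on the horizontal axis, with 7 above and 4 below 0 on the vertical axis.

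Interferon response genes made up 7 of the 32 genes called in the test of the difference. In this arm 0 of 11 tested members passed on day 1 with edgeR or DESeq2 and 2 had an unadjusted p under 0.05; 7 were positive and 4 negative, with a median of 0.21. In the RANKL arm all 11 fell, with a median of -1.87, and 7 genes of the list (Ifi27l2b, Parp14, Oasl2, Irf7, Rtp4, Xaf1 and Ifi44) were called for the difference. The 23 list members in the table summed to 895 and 672 CPM on the day 0 plates of this arm and to 981 and 825 CPM on day 1. In the RANKL arm the same genes summed to 3873, 3054 and 4346 CPM on day 0 and to 1024, 1004 and 1001 CPM on day 1. The arms were far apart on day 0 and close on day 1, when every RANKL plate was still above both plates of this arm. Rtp4, an interferon-induced chaperone, had 17.1 and 2.61 CPM on day 0 and 35.5 and 34.8 CPM on day 1 here, against 194 ± 24.2 CPM and 29.1 ± 2.18 CPM (SD, n = 3) with RANKL. These are levels from separately scaled tables, so that an arm and the table it came from cannot be told apart.

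Krt20 also passed the test of the difference. It rose here and had 244 ± 27.99 CPM on day 0 and 205 ± 22.3 CPM on day 1 with RANKL (SD, n = 3), a difference of the changes of 2.11 ± 0.37 (edgeR adjusted p = 0.00179) that held without each plate of this arm. Its levels here were 43.6 and 39.1 CPM on day 0 and 120 and 188 CPM on day 1. Id1 had the opposite pattern, from 38.0 ± 6.39 to 132 ± 16.4 CPM with RANKL against no call here, with a difference of -1.66 ± 0.36 (adjusted p = 0.0170) that was lost without plate 1 of day 0 (0.558) or plate 2 of day 1 (0.102).

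Over the later days of the arm the genes of the first day took different courses. Nfkbia stayed between 1006 and 1486 CPM on all 12 plates of days 1 to 6, and Tnfaip3 between 132 and 260 CPM. Ccl20 reached 3775 and 4031 CPM on day 3, and Spib 289 and 513 CPM. Olfm4, by contrast, was at 866 and 753 CPM on day 2, below both day 0 plates. It was at 2710 and 4309 CPM on day 4, above both day 0 plates, and at 193 and 520 CPM on day 6. Lgr5 was at 9.31 and 14.1 CPM on day 2 after 124 and 123 CPM on day 1. These later values are given as levels, with no test.

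**Figure D5:**
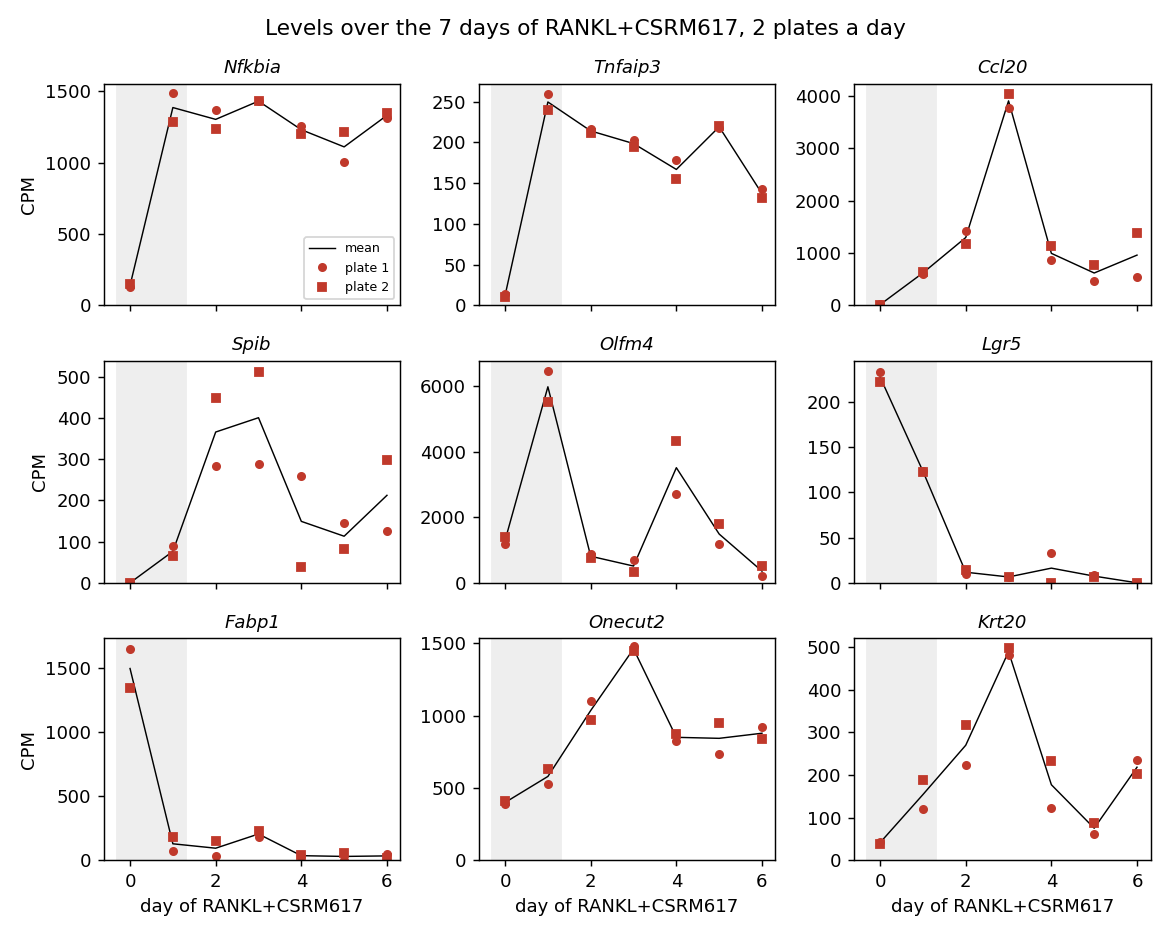
Levels of 9 genes in CPM over days 0 to 6 of RANKL+CSRM617; circles are plate 1, squares plate 2, the line joins the means and the shaded band marks days 0 and 1. Nfkbia stays near its day 1 level, while Tnfaip3 is highest on day 1 and at 142 and 132 CPM on day 6. Ccl20 and Spib go on rising to day 3, Olfm4 peaks on day 1, and Lgr5 and Fabp1 are lower from day 1 on.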

How the data were processed

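RNA of single sorted cells was measured by CEL-Seq2 on 384-well plates. The deposited table holds UMI counts per gene and well that the authors had not normalized; per the submitters' processing notes kallisto, bustools, Seurat 3.1.5 and the build GRCm38 were used, and no other version is stated there. The table of this arm held 9257 genes, 7 without a count, with no mitochondrial or spike-in rows. Groups come from the labels. Wells with 1000 or more UMIs were kept, no doublet caller was run because wells were sorted singly, and counts were summed per plate, with 470995 to 835772 UMIs on the 4 plates. After TMM scaling, the quasi-likelihood test of edgeR 4.0.16 in R 4.3.3 was run on genes kept by filterByExpr (Benjamini-Hochberg threshold 0.05) over all 14 plates of the arm with 7 residual degrees of freedom, contrast day 1 minus day 0; the SE is the log2 fold change over the square root of F. The test of the difference between arms used 35 plates and the 9230 genes in both tables. The fit was tested on simulated data. A fold against 0 UMIs is a bound against 3 UMIs over the group, and 95% intervals of shares and ratios are exact. Cells were thinned to 1000 UMIs with a fixed seed.

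Named genes are the 12 largest rises and 12 largest falls among called genes whose plates did not overlap and whose mean log2 CPM reached 5, up to 4 called members of each of 40 lists (by size of change), and 18 preset genes; the text gives a selection. Other genes were named after their values were seen. The members and lists were chosen with earlier results of these data known. Of the 9257 symbols 9142 were found in GENCODE M21, the source of coordinates, and promoter windows come from RefSeq (GRCm38.p6). Replicate numbers were not used to pair plates in the main fit. Over pairs of days, same-numbered plates deviated together with correlations from -0.292 to 0.280. The highest, 0.280, was that of days 0 and 1, whose same-numbered plates share a description suffix. The main fit left this sharing out, and the fit with the suffix as a covariate called 358 genes. The alternatives were RLE scaling, no filter, DESeq2 1.42.0, all wells, wells with 2000 or more UMIs, thinned cells, only the plates of days 0 and 1, a replicate block, leaving out each plate, leaving out the most abundant gene and, chosen after seeing the data, the description suffix as a covariate and a threshold of 0.01.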

Additional observations from a re-analysis of the deposited data

Results flagged for a closer look

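In the fit over both arms, 11 genes of the lists or the naming rule had a day 1 change that differed between RANKL+CSRM617 and RANKL (edgeR adjusted p under 0.05; values are the log2 change with RANKL+CSRM617 minus that with RANKL). Positive values were found for Cps1 (1.25), Krt20 (2.11), Ifi27l2b (2.19), Parp14 (2.47), Oasl2 (4.18), Irf7 (4.33), Rtp4 (4.38), Xaf1 (6.21) and Ifi44 (9.09). Ifi44 had 0 UMIs on both day 0 plates of this arm and Xaf1 had 0 and 2.61 CPM, so their fitted values depend on the prior count and are no bounds. Negative values were found for Ddit4 (-1.75), a stress-induced inhibitor of mTORC1, and Id1 (-1.66). Krt20, Ifi27l2b, Oasl2, Rtp4 and Xaf1 were called without each plate of this arm in turn. The others lost the call at least once: Cps1, the first enzyme of the urea cycle, without plate 2 of day 0 (adjusted p = 0.0561), Irf7 without plate 1 of day 1 (0.179), Ddit4 without plate 2 of day 0 (0.232) or plate 1 of day 1 (0.154), Id1 without plate 1 of day 0 (0.558) or plate 2 of day 1 (0.102), Parp14 without plate 1 of day 0 (0.0683), plate 2 of day 0 (0.0677) or plate 1 of day 1 (0.0975), and Ifi44 without plate 1 of day 0 (0.0889), plate 2 of day 0 (0.0537) or plate 2 of day 1 (0.177). Groups of 2 plates were not tested for outlying plates.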

How the results depend on the processing

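The 135 rises and 149 falls (284 genes) were within 1.5 times under RLE scaling, no filter, all wells, wells with 2000 or more UMIs, only the 4 plates, without the most abundant gene and with the description suffix as covariate. They were 87 and 94 (181) with DESeq2, 51 and 56 (107, among 3193 genes tested) with thinned cells, and 72 and 71 (143) at a threshold of 0.01. Leaving out 1 plate gave 112 to 185 genes, 61 to 89 rises and 51 to 108 falls; the day with a lone plate is then assumed to vary like the others. The share of rises among calls ran from 41.6% to 60.1% over these fits against 47.5%. With the replicate block the calls were 120 and 123 (243). Same-numbered plates of days 0 and 1 share a suffix and deviated together with a correlation of 0.28. For the difference between arms, 32 genes (27 positive, 5 negative) became 54 with DESeq2 (16 negative), 9 with thinned cells (8 and 1), and 13 to 20 without 1 plate (10 to 18 positive, 2 to 3 negative); the replicate block gave 27. Of 82 named genes tested, 82 kept direction and side of the threshold without the most abundant gene, 81 with RLE scaling, 60 of 76 with DESeq2, 51 of 68 with thinned cells, and 48, 60, 51 and 54 without plate 1 or 2 of day 0 and plate 1 or 2 of day 1; causes were not tested. Directions turned for genes that were not called: over the fits without 1 plate Mki67 ran from -0.18 (without plate 1 of day 0) to 0.59, Id1 from -0.24 (without plate 2 of day 0; also negative without plate 1 of day 1) to 0.84, and Myc from -0.78 to 0.15 (without plate 2 of day 1). With 2 plates a day the median SE was 0.35 over all tested genes, and the smallest called change was 0.76 on the log2 scale.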

Other observations

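Genes outside the lists that passed the test, all chosen after their values were seen, included several of epithelial secretion. A set of 3 members of the calcium-activated chloride channel regulator family rose (edgeR): Clca3b from 666 and 578 to 3453 and 3015 CPM (2.38 ± 0.22, adjusted p = 2.53e-07), Clca3a2 from 18.7 and 18.2 to 175 and 203 CPM (3.32 ± 0.31, adjusted p = 2.53e-07) and Clca4b from 170 and 125 to 758 and 777.4 CPM (2.36 ± 0.24, adjusted p = 1.27e-06). The plates of the days were far apart for each, and each was called without any 1 plate; these genes are neighbours with related sequences, so counts could be divided between them. Guca2b, uroguanylin, rose with its relative Guca2a, from 37.4 and 5.21 to 148 and 161 CPM (2.66 ± 0.45, adjusted p = 0.000673). S100a6 and S100a11, calcium-binding proteins, rose by 1.83 ± 0.25 (adjusted p = 6.24e-05) and 2.27 ± 0.27 (adjusted p = 8.31e-06). Tnf, the cytokine, had 4.67 and 7.82 CPM on day 0 and 40.7 and 58.5 CPM on day 1 (adjusted p = 0.00568) and was called in 2 of the 4 fits without a plate.

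Falls outside the lists included enzymes that act on fatty acids. Acot1, an acyl-CoA thioesterase, fell from 342 and 315 to 83.5 and 67.7 CPM (-2.10 ± 0.29, edgeR adjusted p = 7.51e-05), Acaa2, the mitochondrial thiolase, from 185 and 162 to 45.9 and 36.6 CPM (-2.05 ± 0.32, adjusted p = 0.000238), and Cpt1a, the carnitine palmitoyltransferase of the outer mitochondrial membrane, from 187 and 289 to 78.2 and 97.0 CPM (-1.43 ± 0.26, adjusted p = 0.00111). Each of the 3 was called without any 1 plate. Pigr, the receptor that carries IgA across the epithelium, fell from 1593 and 1881 to 599 and 723 CPM (-1.40 ± 0.25, adjusted p = 0.000986).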
